A study of Mus musculus with 4 samples.

Results

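Complement components, clotting factors and their regulators were read in the liver of 4 ABCA1-TG mice. The set was chosen by gene name as 38 genes of complement, clotting, fibrinolysis and kinin release. Of these, 36 had at least 1 probe set with that single gene symbol, among 12393 genes named in this way, and C3 and Cpb2 were not analysed here. The 36 genes were read by 47 of 22626 probe sets, and each gene is given by its probe set of highest mean level. The arrays measured total RNA of whole liver from male C57BL/6 mice aged 5 to 6 months, fed the NIH36 diet and carrying an ABCA1 transgene. ABCA1 moves cholesterol and phospholipid out of cells to apolipoprotein A-I. All 4 arrays belong to this group, with 1 array per biological replicate, and they are called mouse 1 to mouse 4 after the replicate numbers. The series title gives an LDL receptor -/- background and the sample descriptions LDL receptor +/-, so the genotype at that locus is unsettled here. The sources used here do not name the promoter of the transgene. Wild-type arrays were not analysed here, so each comparison sets transgenic mice against each other.

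Complement is a cascade of plasma proteases in which C3 is cleaved on a surface and the terminal components then assemble into a pore. Clotting is a second cascade, which ends when thrombin turns soluble fibrinogen into fibrin, and plasmin dissolves that fibrin again. Hepatocytes make most of these proteins and secrete them into blood. Several of them are acute phase proteins, whose synthesis in the liver follows interleukin-6 and related cytokines.

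The promoters of the fibrinogen genes Fgg, Fga and Fgb are shown because these genes are neighbours and differed little between the mice on the deposited scale. That of C4bp is shown for the second smallest SD among the members on the deposited scale, and that of F10 for the largest relative spread. Each is the RefSeq sequence of build GRCm38.p6, from 250 bases before to 50 bases after the annotated start, written 5′ to 3′ on the gene's strand. Capitals mark matches to the HNF1 motif GTTAATNNT, the C/EBP motif TTNCNNAA and the interleukin-6 response element CTGGGAA, each searched on both strands.
Fgg (chr3:83007474-83007773, plus strand): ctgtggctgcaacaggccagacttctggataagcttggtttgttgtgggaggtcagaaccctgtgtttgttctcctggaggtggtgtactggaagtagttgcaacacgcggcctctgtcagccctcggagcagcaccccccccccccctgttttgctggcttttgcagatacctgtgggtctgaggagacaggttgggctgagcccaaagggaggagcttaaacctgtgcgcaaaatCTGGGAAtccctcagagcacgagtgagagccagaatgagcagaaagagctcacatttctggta
Fga (chr3:83025903-83026202, plus strand): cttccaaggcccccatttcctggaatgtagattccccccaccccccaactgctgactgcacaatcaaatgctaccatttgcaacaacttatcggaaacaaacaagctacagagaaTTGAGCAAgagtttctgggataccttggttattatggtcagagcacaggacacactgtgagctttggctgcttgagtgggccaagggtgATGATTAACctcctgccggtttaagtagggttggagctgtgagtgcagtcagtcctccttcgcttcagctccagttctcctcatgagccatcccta
Fgb (chr3:83049814-83050113, minus strand): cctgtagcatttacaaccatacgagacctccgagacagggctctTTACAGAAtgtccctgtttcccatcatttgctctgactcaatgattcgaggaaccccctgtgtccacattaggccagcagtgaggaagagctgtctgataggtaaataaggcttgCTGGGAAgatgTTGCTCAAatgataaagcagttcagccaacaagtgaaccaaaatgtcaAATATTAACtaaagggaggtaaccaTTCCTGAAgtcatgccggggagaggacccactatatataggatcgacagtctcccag
C4bp (chr1:130661569-130661868, minus strand): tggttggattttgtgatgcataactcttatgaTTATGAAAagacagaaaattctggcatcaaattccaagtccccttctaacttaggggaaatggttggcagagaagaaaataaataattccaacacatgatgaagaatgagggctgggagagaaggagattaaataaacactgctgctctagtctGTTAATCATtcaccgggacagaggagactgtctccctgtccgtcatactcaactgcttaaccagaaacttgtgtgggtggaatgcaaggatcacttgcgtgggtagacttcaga
F10 (chr8:13037058-13037357, plus strand): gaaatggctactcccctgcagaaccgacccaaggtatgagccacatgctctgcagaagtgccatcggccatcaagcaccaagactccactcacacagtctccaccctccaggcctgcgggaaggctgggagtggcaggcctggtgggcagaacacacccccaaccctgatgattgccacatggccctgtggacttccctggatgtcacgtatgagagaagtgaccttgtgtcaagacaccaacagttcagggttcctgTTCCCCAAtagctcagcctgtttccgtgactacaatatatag

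Among the 31 of 38 genes with a promoter in that table, 32 promoters in all, the HNF1 motif was found in 7 genes (C4bp, F13b, F2, Fga, Fgb, Hc and Proz). It occurred in 2.57% of all 32851 promoters of the same length. The C/EBP motif was found in 16 members and in 40.7% of all promoters. The interleukin-6 element was found in 6 members (C6, F9, Fgb, Fgg, Masp2 and Vtn) and in 11.1% of all promoters. Counted from the start site as base 0, the HNF1 match began at -46 in Fga, at -32 in Fgb and at -64 in C4bp. The interleukin-6 element began at -91 in Fgb and at -13 in Fgg. F10 held 1 C/EBP match, 8 bases after its start site. F9 held the 1 match among members to the HNF4 motif CAAAGTNCA, which 1.41% of promoters held. The TATA box motif TATAAA was found in 5 members and 13.6% of promoters, the NF-kappaB motif GGANTTTCC in 1 member, F3, and 1.25%, and the interferon element AAANNGAAA in 2 members, Hc and Vtn, and 10.6%. In Vtn that match overlapped one to the interleukin-6 element, the 1 overlap between different motifs in a member promoter. A match describes these letters and is not a binding site.

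Hepatocyte markers were bright in all mice, with Alb at 15.96 ± 0.08 and Apoa1 at 16.17 ± 0.08 log2 (SD, n = 4). The summed signal of 9 such markers ran from 318000 in mouse 3 to 357000 in mouse 2. In these whole-tissue samples fewer cells of a type and less RNA per cell cannot be told apart. Mouse 1, which was the lowest mouse for F10, F11, C2, Cfb and C8b, stood apart in its skeletal muscle and bile duct markers, and mouse 2 in its exocrine pancreas markers. The summed signal of 13 skeletal muscle markers was 1090 in mouse 1 and 6980 to 10000 in the other mice. That of 9 exocrine pancreas markers was 6580 in mouse 2 and 1940 to 2930 in the other mice. That of 7 bile duct markers was 823 in mouse 1 and 1430 to 1860 in the other mice. The 18S control signal of mouse 1 was 9.95 log2 against 8.75 to 8.98, and its Gapdh 3-prime to 5-prime log2 ratio, a sign of RNA length, 1.67 against 1.94 to 2.03. Their part in the values of these genes was not tested.

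On the deposited scale the complement and coagulation genes differed by a smaller median fold between the transgenic livers than all genes, and most of them were bright. The highest and the lowest mouse differed by a median of 1.19-fold for the members. This median was 1.50-fold over all genes and 1.26-fold over the 2207 genes with a mean log2 signal of at least 11. With arrays shifted to the same median it was 1.25-fold for the members. In 20 of 36 members the highest and the lowest mouse differed by less than 1.25-fold on the deposited scale. They did so in 20.5% of all genes and 46.6% of those brighter genes. They differed by more than 1.5-fold in 4 members, F3, F10, F11 and C8b, as they did in 50.5% of all genes and 15.2% of the brighter ones. With arrays shifted to the same median the 4 members past that size were F3, F5, F10 and Cfp. Spread falls as the signal rises, and 32 of the 36 members had a mean log2 signal of at least 11. Each SD was therefore also divided by the prior SD that limma fitted at the same mean level. The median of this relative spread was 0.894 for the members, 0.956 for all genes and 0.935 for the brighter genes, and 21 members lay below 1, or 58.3%, as did 53.3% of all genes. The 32 members with a mean log2 signal of at least 11 had a median relative spread of 0.738 on the deposited scale, against 0.935 for the brighter genes. Of these members 62.5% lay below 1, against 54.6% of the brighter genes. Their highest and lowest mouse differed by a median of 1.16-fold, against 1.26-fold. Whether members differ in spread from genes of their level was not tested. In limma's test of excess spread, adjusted over all probe sets, 0 of 36 members and 0% of all probe sets passed. On simulated data this test passed 0 of 50 probe sets whose SD was 4 times the prior SD and 9 of 50 at 8 times. A count of 0 from it therefore says little about the members. At an unadjusted p under 0.05 there was 1 member, F10, against 3.7% of all genes.

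**Figure D1:**
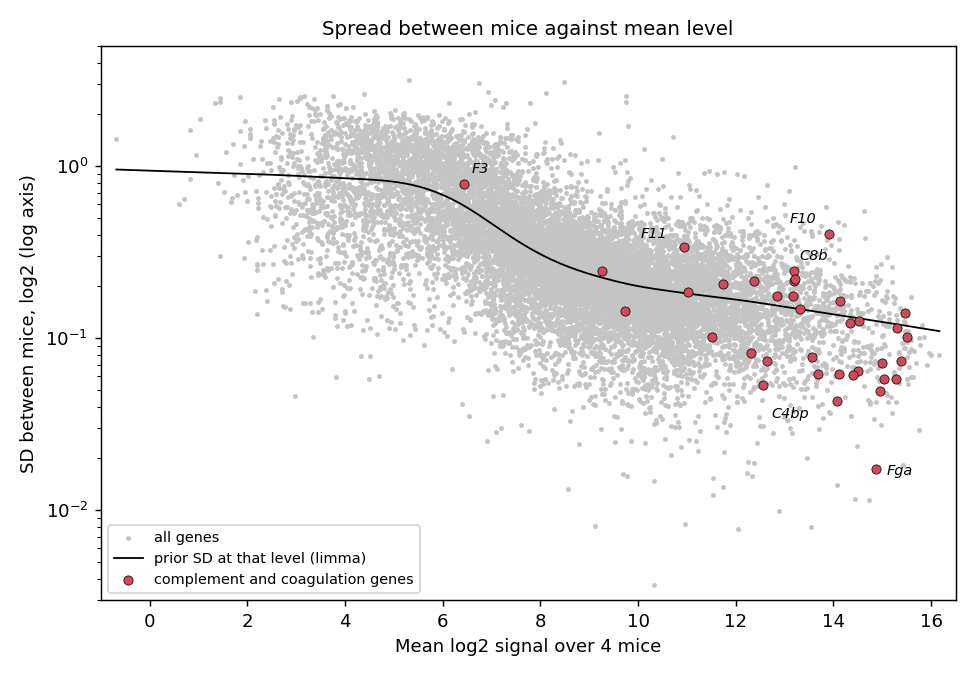
SD between the 4 mice (log2, log axis) against mean log2 signal, with 1 point per gene. Members are red, other genes grey, and the line is limma's prior SD. F10 lies farthest above the line among members, at 2.91 times the prior SD, and Fga farthest below it, at 0.14 times.

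Fibrinogen, the substrate of thrombin, is built from the chains encoded by Fga, Fgb and Fgg. On the deposited scale all of these genes had near-equal levels in the mice. The log2 signal of Fga was 14.89, 14.85, 14.86 and 14.87 in mice 1 to 4, so the mice differed by at most 1.03-fold. Its SD of 0.02 log2 was the smallest of the 36 members on the deposited scale, but this depends on the scaling. The SD of Fga was 0.05 after quantile normalization, where Proz had the smallest at 0.03, and 0.11 with arrays shifted to the same median, where Masp1 had the smallest at 0.02. Fgb measured 15.43, 15.57, 15.43 and 15.63 in mice 1 to 4, with mouse 4 highest. Its mean was 15.52 ± 0.10 (SD, n = 4). Fgg averaged 15.38 ± 0.07 (SD, n = 4) and was lowest in mouse 1. Although the 3 genes are neighbours with no other protein-coding gene between them, the mouse with the highest level was not the same, being mouse 1 for Fga, mouse 4 for Fgb and mouse 2 for Fgg, and each gene differed by at most 1.15-fold. With arrays shifted to the same median mouse 4 was highest for all of them. The mice then differed by 1.16-fold for Fga, 1.32-fold for Fgb and 1.13-fold for Fgg. Plg, the precursor of plasmin, averaged 15.28 ± 0.06 (SD, n = 4). F13b, the carrier subunit of the enzyme that cross-links fibrin, measured 13.36, 12.99, 13.07 and 13.30 in mice 1 to 4, and had the largest SD of this group, at 0.18 log2.

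The vitamin K-dependent factors hold the widest member by relative spread. F10 encodes factor X, the protease that turns prothrombin into thrombin. On its brightest probe set it measured 13.33, 14.17, 14.19 and 13.99 log2 in mice 1 to 4, so mouse 1 lay apart below the other mice. Mouse 1 was 0.79 below the mean of the other 3 mice, the SD of 0.40 log2 was 2.91 times the prior SD, and limma's test over all probe sets gave an adjusted p of 0.977. Without mouse 1 the SD of F10 was 0.11. On the 2 other probe sets of F10 this gap was smaller. They measured 10.96, 11.08, 11.14 and 11.08 on one and 10.03, 9.98, 10.02 and 10.19 on the other, which put mouse 1 at 0.14 and 0.03 below the other mice.

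F7, the protease that starts clotting with tissue factor, lies next to F10 in the genome. Its signal was 12.25, 12.54, 12.59 and 12.15 log2 in mice 1 to 4. Mice 2 and 3 were the higher pair here too, but mouse 4 was the lowest and not mouse 1. Proz, the neighbour of F10 on the other side, encodes a cofactor for the inhibition of factor X. Proz measured 12.57, 12.55, 12.49 and 12.62 log2 on its brightest probe set, with an SD of 0.05. On its second probe set the values were 10.88, 11.30, 11.14 and 10.87, with an SD of 0.21 and mice 2 and 3 the higher pair. The other members of the group were F2, F9, Proc and Pros1, which encode prothrombin, factor IX, protein C and its cofactor protein S. Their SDs ran from 0.06 log2 for F2 and F9 to 0.12 for Proc and 0.19 for Pros1. Pros1 was lowest in mouse 3, at 10.74 against 11.08 to 11.16 in the other mice.

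In the contact system, F11 encodes factor XI, which activates factor IX. F11 measured 10.56, 11.18, 11.27 and 10.76 log2 in mice 1 to 4, and mice 2 and 3 were the higher pair. The highest mouse was 1.63-fold above the lowest, and limma's test gave an adjusted p of 0.977. F12, which starts the contact pathway, was also lowest in mouse 1 and highest in mouse 3, with 13.15, 13.38, 13.49 and 13.23 log2 in mice 1 to 4. Klkb1, prekallikrein, lies next to F11 and measured 13.57 ± 0.08 (SD, n = 4), with mouse 2 the lowest. Kng1, the kininogen from which bradykinin is cut, measured 15.02, 15.12, 15.04 and 14.99. On its second probe set Kng1 averaged 14.32 ± 0.08 log2 (SD, n = 4).

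Among the clotting cofactors, F3, tissue factor, is the membrane receptor for factor VII and is known mainly from cells outside the blood vessel lining. Its log2 signal was 6.43, 5.35, 7.12 and 6.89 in mice 1 to 4. These correspond to signals of 86.0, 40.7, 139.4 and 118.5, below the median signal of every array, which ran from 267 to 305. No detection calls were used, so whether F3 was above background is unknown. Its SD of 0.79 log2 was 1.34 times the prior SD at that level, and without mouse 2, the lowest, it was 0.36 log2. F5, the cofactor of factor X, measured 13.33, 13.14, 12.93 and 13.44 log2, and its second probe set averaged 11.75 ± 0.03 (SD, n = 4). Mouse 3 was lowest on both probe sets of F5. F8, made mainly by sinusoidal endothelial cells of the liver, measured 9.61, 9.73, 9.94 and 9.67 log2, with mouse 3 highest, and its SD of 0.14 log2 was 0.06 without mouse 3. The SD of F8 was 0.69 times the prior SD. All 10 sinusoidal endothelial markers had an SD below the prior SD, as did 53.3% of all genes. In mouse 3, where F8 was highest, 3 of these 10 markers were above the mean of the other mice. Their part in the F8 values was not tested.

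Among the early complement genes, C2 and Cfb were lowest in mouse 1 and highest in mouse 3. Mouse 1 was lowest for both under each scaling, while mouse 4 was highest with arrays shifted to the same median. C2 and Cfb are neighbouring genes whose proteins form the protease part of the C3-cleaving enzymes. C2 measured 11.50, 11.66, 11.96 and 11.86 log2 in mice 1 to 4, and mouse 1 was 0.32 below the mean of the other mice. Cfb measured 12.88, 13.27, 13.36 and 13.29 log2, and mouse 1 was 0.42 below the others. Without mouse 1 the SD of Cfb was 0.05 log2, against 0.22 with all mice. In limma's spread test neither passed, with an adjusted p of 0.977 for both. Cfp, properdin, which stabilises the enzyme and is known from leukocytes, measured 9.20, 8.95, 9.35 and 9.54 log2. There the lowest mouse was mouse 2, where 1 of 10 macrophage markers was above the mean of the other mice. The summed signal of these macrophage markers was 33500 in mouse 2 and 34300 to 42500 in the other mice. Of 8 neutrophil and platelet markers, 6 were above the mean of the other mice in mouse 2. Their summed signal was 2810 in mouse 2 and 1460 to 2430 in the other mice. The part of either list in the Cfp values was not tested.

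The lectin pathway starts complement when mannose-binding lectins recognise sugars. Mbl1 measured 12.69, 13.03, 12.70 and 12.97 log2 in mice 1 to 4 and Mbl2 measured 14.17, 13.91, 14.20 and 14.29. Mouse 2 was thus the highest for Mbl1 and the lowest for Mbl2, though with arrays shifted to the same median mouse 4 was highest for both. Without mouse 2 the SD of Mbl2 was 0.07 log2, against 0.17 with all mice. Of their proteases, Masp1 measured 12.26, 12.40, 12.39 and 12.24 log2 in mice 1 to 4 and Masp2 averaged 11.51 ± 0.10 (SD, n = 4). The mice differed by at most 1.12-fold on the brightest of the 5 probe sets of Masp1, and by 1.91-fold on the dimmest, which had a mean log2 of 6.57. On the third brightest, mouse 3 was highest at 10.83 log2 and the mice differed by 1.68-fold. On the second probe sets of Masp2 and Proz the mice differed by 1.35-fold.

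The regulators had the smallest median SD of the role groups on the deposited scale, 0.05 log2. With arrays shifted to the same median it was 0.13, above the terminal components at 0.11 and the contact system at 0.12. C4bp, which blocks the C3-cleaving enzyme of the classical and lectin pathways, measured 14.05, 14.02, 14.09 and 14.12 log2 in mice 1 to 4. Cfi, the protease that cuts C3b and C4b, measured 14.91, 15.04, 14.94 and 15.06 log2. Vtn, vitronectin, which keeps the terminal complex from membranes, measured 14.96, 14.90, 14.91 and 15.01 log2, and its second probe set averaged 14.20 ± 0.07 (SD, n = 4). All 3 regulators had a relative spread below 1, with a median of 0.394, or 0.778 with arrays shifted to the same median.

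The terminal components that build the membrane pore were also close between mice, apart from C8b. C8b, the beta chain of C8, measured 12.92, 13.15, 13.51 and 13.20 log2 in mice 1 to 4, from lowest in mouse 1 to highest in mouse 3, a difference of 1.52-fold. Its SD was 0.25 log2 with all mice and 0.15 without mouse 3. The adjacent gene C8a measured 14.09, 14.05, 14.13 and 14.19 and C8g averaged 14.51 ± 0.06 (SD, n = 4), so the other chains of the same protein differed by 1.11-fold and 1.10-fold. Hc, which encodes mouse C5, measured 14.39, 14.63, 14.63 and 14.45 log2, C6 averaged 12.65 ± 0.07 (SD, n = 4) and C9 15.30 ± 0.11 (SD, n = 4). Ahsg, fetuin-A, a plasma inhibitor of calcification listed with these genes, measured 15.44, 15.29, 15.54 and 15.61 log2, and its SD of 0.14 was 0.09 without mouse 2.

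**Figure D2:**
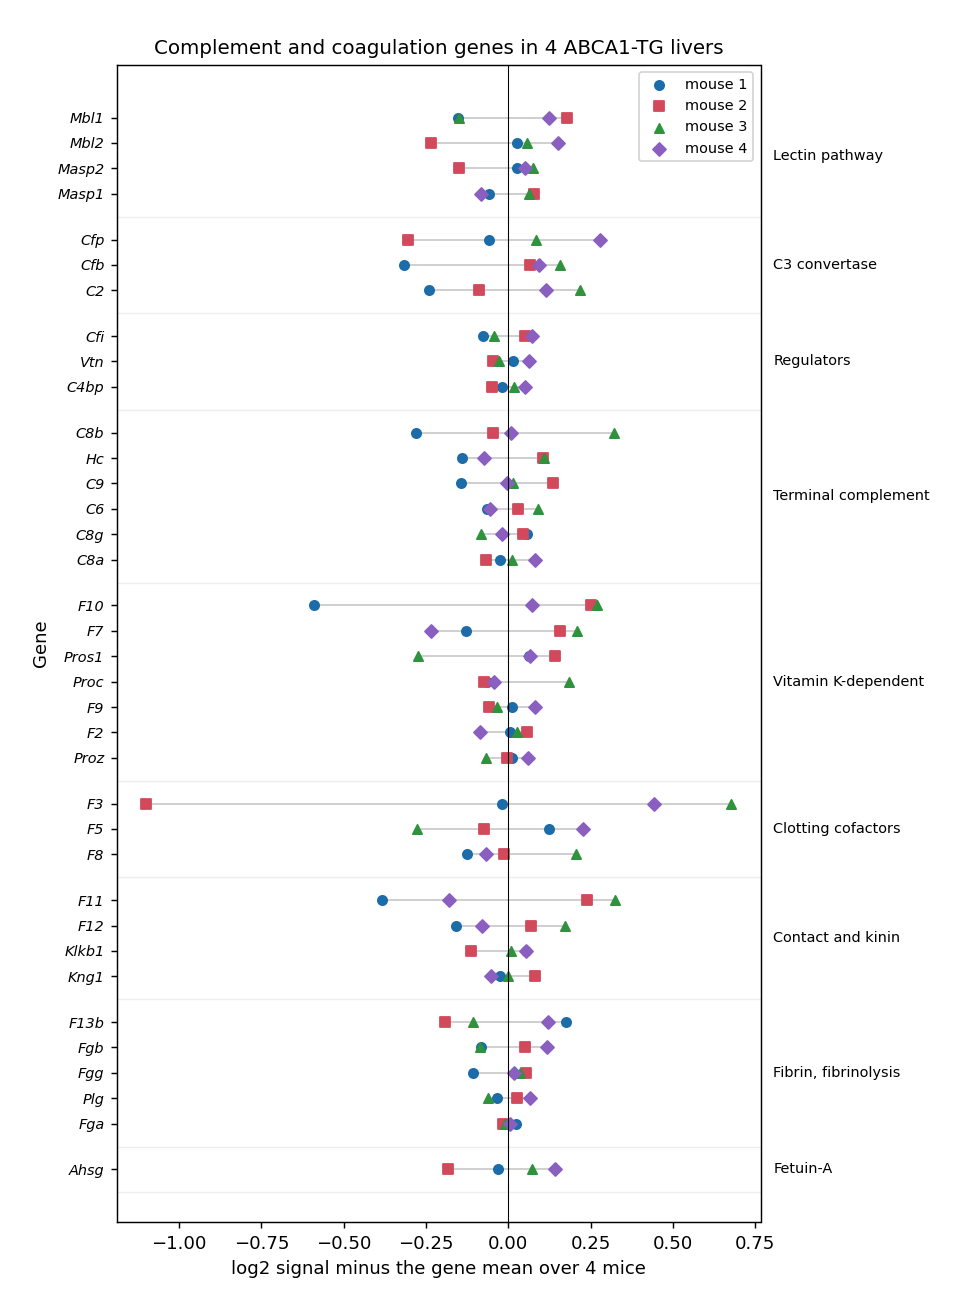
Each of the 36 members in mice 1 to 4, as log2 signal minus the gene's mean over the 4 mice, ordered by role and then by SD. Points are single mice and grey lines join the lowest and the highest. F3, F10, F11 and C8b have the widest lines and Fga the narrowest.

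For 7 members, at least 2 probe sets read the same gene, which allowed a test of whether they share a difference between mice. For F5, F10, Kng1, Masp1, Masp2, Proz and Vtn, limma's F test gave 0 with an adjusted p under 0.05, against 0.383% of the 4956 genes tested, and 0 with an unadjusted p under 0.05, against 9.12%. The lowest unadjusted p was 0.0853, for Masp1, and F10 had 0.154. Adjusted over all genes these were 0.575 and 0.628. For F10 the shared SD was 0.16 log2 and the disagreement between its probe sets 0.22. Probe sets share the RNA and the array, so this test does not tell the animal from the array. On simulated data it passed 6 of 50 genes with a true shared SD of 0.25 log2 and 21 of 50 with 0.5. A count of 0 from it therefore says little about these members.

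**Figure D3:**
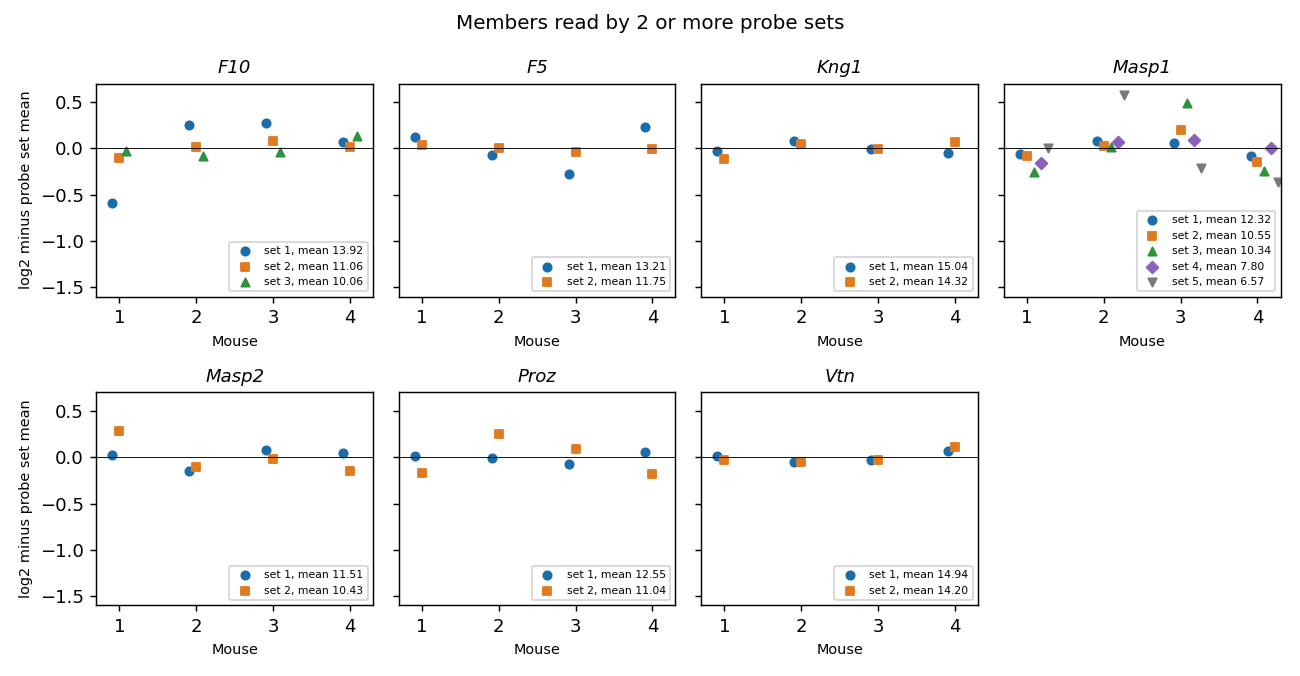
log2 signal minus each probe set's own mean in mice 1 to 4, for the 7 members with at least 2 probe sets. Sets are ordered by mean level, given in each key. In the F10 panel mouse 1 lies at -0.59 on set 1, at -0.11 on set 2 and at -0.02 on set 3.

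Across the members, the median of a mouse minus the mean of the other 3 was -0.06 log2 in mouse 1, with 12 of 36 members above the others. It was 0.02 in mouse 2 with 18 above, 0.04 in mouse 3 with 23 and 0.08 in mouse 4 with 24. Over all genes these medians were -0.05, 0.06, 0.09 and -0.06, and over genes with a mean log2 of at least 11 they were -0.01, 0.01, -0.02 and 0.04. Mice 1 to 4 were above the others in 42.8%, 57.9%, 59.8% and 42.9% of all genes. Among genes with a mean log2 of at least 11 these shares were 47.2%, 51.2%, 46.2% and 58.0%. The members' lowest level was in mouse 1 for 13 genes and in mouse 2 for 13, or 36.1% each, against 28.9% and 20.0% of all genes. Their highest was in mouse 3 for 13 genes and mouse 4 for 12, or 36.1% and 33.3%, against 33.5% and 19.3% of all genes. Among genes with a mean log2 of at least 11, the lowest level was in mouse 1 for 29.4% and in mouse 2 for 22.0%, and the highest in mouse 3 for 25.9% and in mouse 4 for 31.2%. These shares are descriptions, since genes of one liver are not independent.

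Shifting the arrays to the same median moved the median of all genes by 0.14 in mouse 4, by -0.12 in mouse 3, by -0.09 in mouse 2 and by 0.07 in mouse 1. The members then had medians of 0.01, -0.08, -0.08 and 0.22 in mice 1 to 4, so the sign in mice 1, 2 and 3 depends on the scaling. In mice 1 to 4 the medians were then 0.02, -0.03, -0.03 and 0.08 over all genes. Over genes with a mean log2 of at least 11 they were 0.05, -0.09, -0.14 and 0.18. The counts above the others were then 18, 9, 12 and 34 of 36 members in mice 1 to 4. They were 6454, 5723, 5846 and 7361 of all 12393 genes, and 1337, 670, 615 and 1818 of the 2207 brighter genes. With quantile normalization the members' medians were -0.05, -0.02, 0.10 and 0.04.

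**Figure D4:**
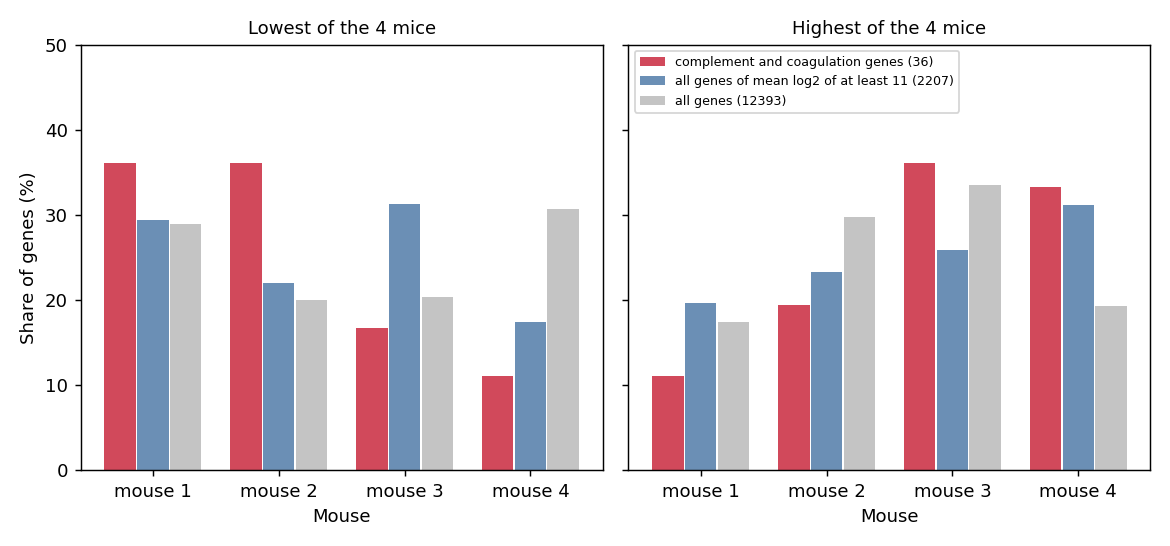
Share of genes (%) whose lowest (left) or highest (right) level was in each mouse, for the 36 members, the 2207 genes with a mean log2 of at least 11, and all 12393 genes. Members were lowest in mice 1 and 2 in 36.1% of cases each and highest in mouse 3 in 36.1%.

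Other genes of these pathways that are not members also gave 0 past either of limma's tests after adjustment. Of 15 other complement genes and 28 other clotting and fibrinolysis genes, 0 had an unadjusted p under 0.05 for spread. Serping1, the inhibitor of the first complement protease, averaged 14.83 ± 0.03 log2 (SD, n = 4), and Serpinc1, antithrombin, 15.17 ± 0.05 (SD, n = 4). The widest in their lists were C5ar1 and Cr2, both complement receptors, with SDs of 0.49 and 0.42 log2, and Serpina5 and Procr, an inhibitor of and a receptor for protein C, with SDs of 1.16 and 0.58. These 4 genes had mean log2 signals of 5.05 to 7.54, where the prior SD is also larger. In the vitamin K cycle, Vkorc1, the reductase that warfarin blocks, averaged 13.29 ± 0.06 and Ggcx, the carboxylase, 9.47 ± 0.32 (SD, n = 4), with Ggcx highest in mouse 3. Nqo1, a quinone reductase, averaged 9.38 ± 0.14 (SD, n = 4).

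The 14 liver transcription factors had a median relative spread of 1.14. Hnf4a, which drives many clotting factor genes, averaged 14.25 ± 0.05 log2 (SD, n = 4) on the brightest of its 4 probe sets. Over all 4 the shared SD was 0.18 log2. Onecut1 measured 8.45, 9.22, 9.89 and 9.52 and Foxa1 10.36, 11.11, 11.01 and 11.26 in mice 1 to 4, so both were lowest in mouse 1. The 16 acute phase and interleukin-6 response genes had a median relative spread of 1.36, and 3 of them, Lcn2, Saa1 and Saa2, had an unadjusted p under 0.05 for spread. So did Onecut1, 1 of the 14 transcription factors, against 3.7% of all genes. Lcn2, lipocalin 2, measured 10.56, 10.46, 8.93 and 8.54, and Saa2, serum amyloid A, 9.92, 8.67, 8.72 and 8.47. The ferroxidase gene Cp averaged 15.43 ± 0.02 (SD, n = 4) on the brightest of its 7 probe sets. Over all 7 the shared SD was 0.23 log2 and the disagreement between probe sets 0.58. Whether the lists differ from each other in spread was not tested, and 0 genes of these lists passed either of limma's tests after adjustment. In the shared-difference test, F2r, Hnf4a, Cebpb, Onecut1 and Saa1 had an unadjusted p under 0.05 among the genes of the pathway, transcription factor and acute phase lists. They were 1 of 5 other clotting genes tested, 3 of 7 transcription factors and 1 of 6 acute phase genes, with 0 of 5 other complement genes. Over all 4956 genes tested the share was 9.12%.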

How the data were processed

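Total liver RNA of 4 mice was measured, with 1 biotin-labelled array per mouse. Per the labels' protocols, livers were snap-frozen, RNA was extracted with Trizol, and 2 ug was amplified with RiboAmp. The deposited values are linear signal intensities per probe set, and RMA is the tool that the submitters' processing notes name. In these deposited intensities the mean, once 2% was trimmed at each end, lay between 1000.4 and 1000.5 on every array, the lowest signal was 0.1, and the median ran from 267.3 to 305.3. The sources used here do not give the background step, nor how RMA led to linear values of one trimmed mean. The number of arrays limits the precision, and no detection calls were used.

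Log2 was taken of the intensities with no pseudocount or further normalization, and 64 control probe sets were left out. Gene symbols came from the platform annotation. The variance between mice was tested against a prior that follows mean level (limma 3.58.1, R 4.3.3, robust fit, upper-tail F). For genes with at least 2 probe sets, the between-mouse mean square was tested against the moderated disagreement of the probe sets. Both used Benjamini-Hochberg adjustment over the whole table with a threshold of 0.05, and were tested on simulated data. The labels call the arrays biological replicates and do not say whether animals were pooled, so p-values measure only the spread between these samples.

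Per-mouse values are given for the members past either test or with an unadjusted p under 0.05, and in each role group for the 2 members of largest and the 1 of smallest SD. In each other pathway list the 2 genes of largest and the 1 of smallest SD are named. Other genes were named after their values were seen. The members and lists were chosen with earlier results of these data known. Alternatives were other scalings, a floor of 64, a filter at a mean log2 of 7, other probe set choices and priors, and leaving out each mouse. Promoters are from RefSeq (GRCm38.p6), and the motif letters were chosen after matches to longer forms were seen. The array's build is not given, so other gene positions are not printed.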

Additional observations from a re-analysis of the deposited data

Results flagged for a closer look

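Proc, protein C, measured 14.28, 14.27, 14.53 and 14.30 log2 in mice 1 to 4. Mouse 3 lay apart above the others, with a gap to the nearest mouse of 0.883 of the whole range, above Dixon's critical value of 0.829 for 4 samples. The mice differed by at most 1.20-fold, and the SD of 0.12 log2 was 0.93 times the prior SD. Among the 36 members 1 was singled out in this way, at a critical value that about 1 in 20 independent normal samples would pass. The members share the same 4 arrays, and the share over all genes was not computed. The 1 outlier is therefore not shown to be unusual.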

How the results depend on the processing

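The count of members past limma's spread test was 0 under each of the 12 alternatives run for it, and that past the shared-difference test was 0 under each of the 9 run. The whole-table counts moved: for the shared difference 19 genes passed as reported, 14 after quantile normalization, 51 with arrays shifted to the same median, 57 of 3131 at a mean log2 of at least 7, 1 with the floor of 64, 0 without probe sets ending in _s_at, _x_at or _a_at, and 0 to 4 when 1 mouse was left out. For spread 10 of 15126 probe sets passed at a mean log2 of at least 7, and 0 under the other 11 alternatives. The median relative spread of the members ran from 0.42 with a prior that has no trend with level to 0.937 without the shared probe sets, against 0.894 as reported. The members' median in mouse 4 moved from 0.0751 to 0.216 with arrays shifted to the same median. That of genes with a mean log2 of at least 11 moved from 0.0355 to 0.176. Over the alternatives the members' median ran from -0.102 to 0.00727 in mouse 1, from -0.0769 to 0.037 in mouse 2, from -0.0752 to 0.103 in mouse 3 and from 0.04 to 0.216 in mouse 4. Of these, the limit to members with a mean log2 of at least 11 was chosen after seeing the data. The SD of F10 was 0.161 as a mean over its probe sets. The unadjusted spread count of 1 became 0 with arrays shifted to the same median, with the mean over probe sets, with a prior without trend and without mouse 1. With arrays shifted to the same median the SD of 18 of 36 members moved by over 1.5 times, the highest mouse was another one in 14 and the lowest in 8, and after quantile normalization these counts were 5, 10 and 2. Leaving out 1 mouse reduced the SD by over 1.5 times for 12 of the 25 members described one by one: Cfb, F10 and Fga without mouse 1, F3, Mbl2, Kng1 and Ahsg without mouse 2, C8b, F8 and Proz without mouse 3, and C8a and Vtn without mouse 4. The 25 were named by their SD within role groups. These counts of changed SDs and of other highest or lowest mice were not made over all genes. They are therefore not shown to be particular to the members. No paired analysis was possible because the labels put all arrays in 1 group.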
